A study of Rattus norvegicus with 102 samples.

Results

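The comparison described here is between old rats with intact memory and young rats in area CA3 of the hippocampus. Its members are the 22 CA3 libraries whose labels name an aged unimpaired (AU) or a young rat, 12 AU and 10 young, out of 102 libraries of the series. All animals were male Fischer 344 rats, an inbred strain, aged 5 to 6 months (young) or 17 to 22 months (AU). AU rats had scored in the range of the young on a probe trial of the Morris water maze, in which a rat searches from memory for a hidden platform, and aged impaired (AI) rats had scored below it. The tissue was hand-dissected CA3 from 1 hippocampus per rat, taken about 2 weeks after the maze, so every rat had been trained, and area CA2 was not separated from its neighbours. The polyadenylated RNA of each rat was sequenced as 1 library. Each value is a normalized count, the reads of a gene divided by 1 scaling factor per library, and recovered read totals ran from 6309085 to 14104325 in the young (median 10812074) and from 7584777 to 15010580 in AU rats.

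CA3 pyramidal neurons receive the mossy fibers of the dentate gyrus (DG), are densely connected with each other, and project to CA1. Among brain cells, microglia are the resident phagocytes. They sense damage through receptors that signal by way of the adaptor Tyrobp, clear material tagged by complement or antibody, and can display peptides on MHC class II molecules, which are scarce in the healthy young brain and are widely known to be raised on microglia of aged brains. The gene lists used here cover these functions, other glia, neurons and the other cell types that a dissected CA3 block can hold.

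The rat identifiers form 2 series, R9 and R1-R2, whose meaning the labels do not give, with 5 young and 6 AU rats in each. The rats were tested at 2 sites, whose numbers of young and of aged rats in the paper equal those of the 2 series. The labels do not name the site of a rat, so whether the series are the sites was not tested. The labelled subfield was checked with the mean centered log2 level of marker genes of CA1, CA3 and DG. In the R1-R2 series the CA3 score was the highest of the 3 in 5 of 5 young and 6 of 6 AU libraries. In the R9 series it was the highest in 0 of 5 young and 1 of 6 AU libraries, and the CA1 score was the highest in 5 young and 4 AU libraries. That 1 AU library, of rat R9869, had all 3 scores below 0 (CA1 -1.27, CA3 -0.86, DG -1.47). Its summed CA3 marker level (8921) was the lowest of the 22 libraries. For example Grik4, a kainate receptor subunit enriched in CA3 neurons, had a median normalized count of 2280 in young and 2258 in AU libraries of the R1-R2 series, and of 877 and 759 in the R9 series. Both series hold both groups in the same proportion, and results are therefore given for all 22 libraries and within each series. 1 young library of each series also stood apart in markers of tissue that borders the hippocampus. Young rat R9876 had a summed level of 12 meningeal marker identifiers of 31472, with 1646 in the next young library and at most 3357 in AU libraries. Young rat R2221 had a summed level of 10 choroid plexus genes of 20350, with 3260 in the next young library and at most 3013 in AU libraries.

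**Figure D1:**
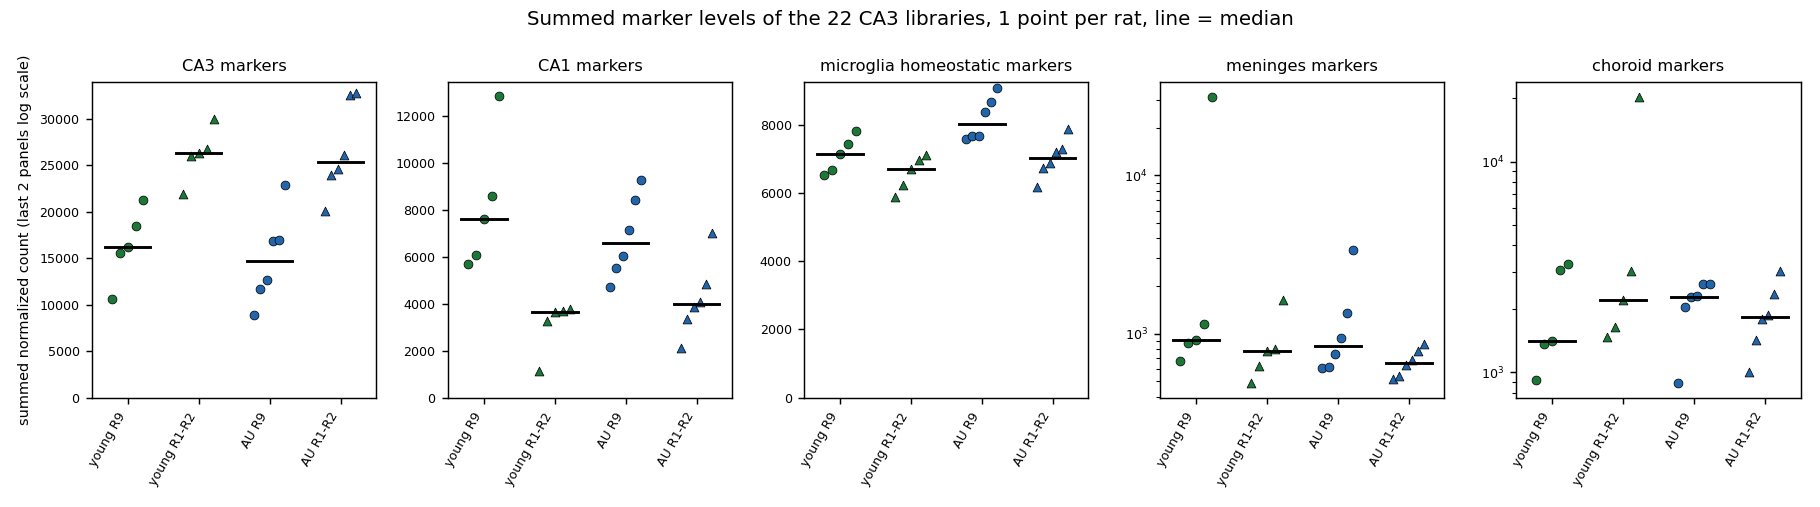
Summed normalized counts (vertical axis; logarithmic in the last 2 panels) of marker genes of CA3, CA1, homeostatic microglia, meninges and choroid plexus in the 22 CA3 libraries, by group and identifier series (horizontal axis; circles R9, triangles R1-R2), with the median as a line. CA3 marker sums had medians of 16258 (young) and 14745 (AU) in the R9 series and of 26370 and 25373 in the R1-R2 series, and 1 young library each stood out for meninges (31472) and choroid plexus (20350).

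No gene of the 16493 tested passed an adjusted p of 0.05 between AU and young rats in CA3 (limma on log2(normalized count + 1), Benjamini-Hochberg, 0% called, smallest adjusted p = 0.567). At an unadjusted p under 0.05 there were 288 genes, which is 1.75% of those tested, where uniform p-values would give 5%. Of these, 159 were higher (0.964% of all genes tested) and 129 were lower in AU rats (0.782%). edgeR's quasi-likelihood test on the recovered reads gave 0 genes at adjusted p under 0.05 (414 at an unadjusted p under 0.05), and DESeq2 gave 1, the unnamed gene AABR07006310.1 described below (adjusted p = 0.0125). Fitted alone, the R9 libraries gave 0 genes at adjusted p under 0.05 (limma, 604 or 3.65% at an unadjusted p under 0.05) and the R1-R2 libraries gave 1, Cdh1 (235 or 1.44%). The median SE of a log2 difference was 0.19. The median half-width of its 95% interval, which is not adjusted for the number of genes, was 0.39. That is not a detection limit, and larger differences could also miss the adjusted threshold. The median log2 difference over all genes was -0.02. The limma differences named below for all 22 libraries therefore did not pass the adjusted threshold, and p is unadjusted unless it is called adjusted. The same number of rats gave 714 genes at an unadjusted p under 0.05 in CA1 (4.36%, with 0 at adjusted p under 0.05, 0 by edgeR and 9 by DESeq2) and 1016 in DG (6.28%, with 2 at adjusted p under 0.05, or 0.0124%, Gpnmb and Cdh1, 0 by edgeR and 19 by DESeq2).

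Of the 5 genes with an adjusted p of 0.567, 3 (RT1-Db1, Cd74 and RT1-Ba) belong to MHC class II, the molecules that present peptides of ingested proteins to helper T cells. The classical molecules are pairs of an alpha and a beta chain, which in the rat are encoded by RT1-Da with RT1-Db1 and by RT1-Ba with RT1-Bb. Cd74 encodes the invariant chain that escorts them to the endosome, and Ctss encodes the protease cathepsin S, which trims the invariant chain. In immune cells these genes are turned on together through an X box and a Y box in their promoters, on which the transactivator Ciita assembles. The promoters of the 4 chain genes are shown because the levels of these genes were correlated across the 22 libraries, with both groups pooled. They are RefSeq sequences of build GRCr8 (the expression values were made on rn5), read 5′ to 3′ on the strand of the gene from 250 bases before to 50 bases after its start, and come from the Brown Norway reference strain, which has another RT1 haplotype than Fischer 344. Capitals mark 2 runs of letters searched on both strands, chosen after these promoters had been read: CTGATTGG, the letters of a Y box, and GCAACNGATG, those of an X box, both read from the RT1-Da promoter at 52 and 82 bases before its start, with position 6 of the X box left free (N).
RT1-Da (chr20:4515165-4515464, plus strand): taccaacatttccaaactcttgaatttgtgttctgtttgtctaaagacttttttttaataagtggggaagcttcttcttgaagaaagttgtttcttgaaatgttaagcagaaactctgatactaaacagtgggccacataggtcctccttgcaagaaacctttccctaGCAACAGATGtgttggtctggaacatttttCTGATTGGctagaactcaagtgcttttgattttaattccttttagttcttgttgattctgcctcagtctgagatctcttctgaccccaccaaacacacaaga
RT1-Db1 (chr20:4560113-4560412, minus strand): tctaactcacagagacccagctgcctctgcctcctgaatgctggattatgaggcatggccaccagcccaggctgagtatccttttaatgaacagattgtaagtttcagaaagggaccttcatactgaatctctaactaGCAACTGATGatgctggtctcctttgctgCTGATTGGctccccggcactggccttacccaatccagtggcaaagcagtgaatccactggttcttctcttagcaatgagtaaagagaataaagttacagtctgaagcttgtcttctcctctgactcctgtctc
RT1-Ba (chr20:4576807-4577106, plus strand): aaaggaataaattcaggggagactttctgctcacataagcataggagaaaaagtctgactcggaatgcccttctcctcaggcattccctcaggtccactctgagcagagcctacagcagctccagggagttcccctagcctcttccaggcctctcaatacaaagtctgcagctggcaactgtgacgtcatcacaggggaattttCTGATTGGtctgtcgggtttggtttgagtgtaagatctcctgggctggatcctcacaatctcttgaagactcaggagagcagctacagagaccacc
RT1-Bb (chr20:4604069-4604368, minus strand): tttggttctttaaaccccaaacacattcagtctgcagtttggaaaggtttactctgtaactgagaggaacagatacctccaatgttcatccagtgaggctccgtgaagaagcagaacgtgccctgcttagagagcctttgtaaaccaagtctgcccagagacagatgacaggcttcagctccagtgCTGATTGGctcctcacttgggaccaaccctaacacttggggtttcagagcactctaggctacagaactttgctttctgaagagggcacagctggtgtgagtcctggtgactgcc
The Y box letters were in 6 and the X box letters in 4 of the 10 genes of the MHC class II list that matched a RefSeq promoter. Of 33469 promoters 3.5% and 0.14% held them. RT1-Da, the source of the letters, is among the genes counted and matches by construction, so these counts are not a test of enrichment. Both were in RT1-Da and RT1-Db1 (and RT1-Db2), and 5 of all promoters (0.0149%) held both. Of the runs searched, RT1-Ba, RT1-Bb and RT1-DOa held the Y box letters only, and RT1-DOb the X box letters only. The windows of Cd74, Ctss and RT1-DMa held neither run. X boxes spelled with other letters were not searched for, so the absence of an X box from a promoter was not tested. The match of letters is a description of these windows.

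RT1-Db1 (ENSRNOG00000033215), the beta chain of the RT1-D molecule, had normalized counts from 6.18 to 191 in young rats (median 22.3) and from 46.2 to 1047 in AU rats (median 150). All 12 AU libraries lay above the young median and 5 lay above the highest young library, while 3 young libraries, rats R9876 (191), R9780 (112) and R1922 (71.8), lay above the lowest AU library. The log2 difference was 2.63 (SE 0.56, 95% interval 1.49 to 3.77, p = 7.0e-05, adjusted p = 0.567), a fold of 6.2. Cd74 (ENSRNOG00000018735) ran from 88.4 to 744 in young (median 174) and from 221 to 4062 in AU rats (median 774). Its log2 difference was 1.94 (SE 0.44, p = 0.00017, adjusted p = 0.567), again with 12 of 12 AU libraries above the young median. RT1-Ba, the alpha chain of RT1-B, had young values from 8.13 to 204 (median 27.7) and AU values from 34.8 to 749 (median 151), with a log2 difference of 2.17 (SE 0.49, adjusted p = 0.567). Both of these groups of values overlapped, with 6 (Cd74) and 3 (RT1-Ba) AU libraries above the highest young one. RT1-Da (log2 difference 2.02, SE 0.51, p = 0.00056) had medians of 42.8 in young and 167 in AU rats, and RT1-Bb (2.08, SE 0.54, p = 0.00067) had medians of 35.9 and 135. The 4 chain genes and Cd74 were correlated over the 22 libraries on the log2 scale, with pairwise Pearson r from 0.885 to 0.962. Both groups were pooled without removing group means, so the AU minus young differences given above enter these correlations. They are a description of libraries that also share their depth and scaling across these genes. Reads of RT1 genes can be shared with near-identical copies, and how the counting split them was not examined.

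**Figure D2:**
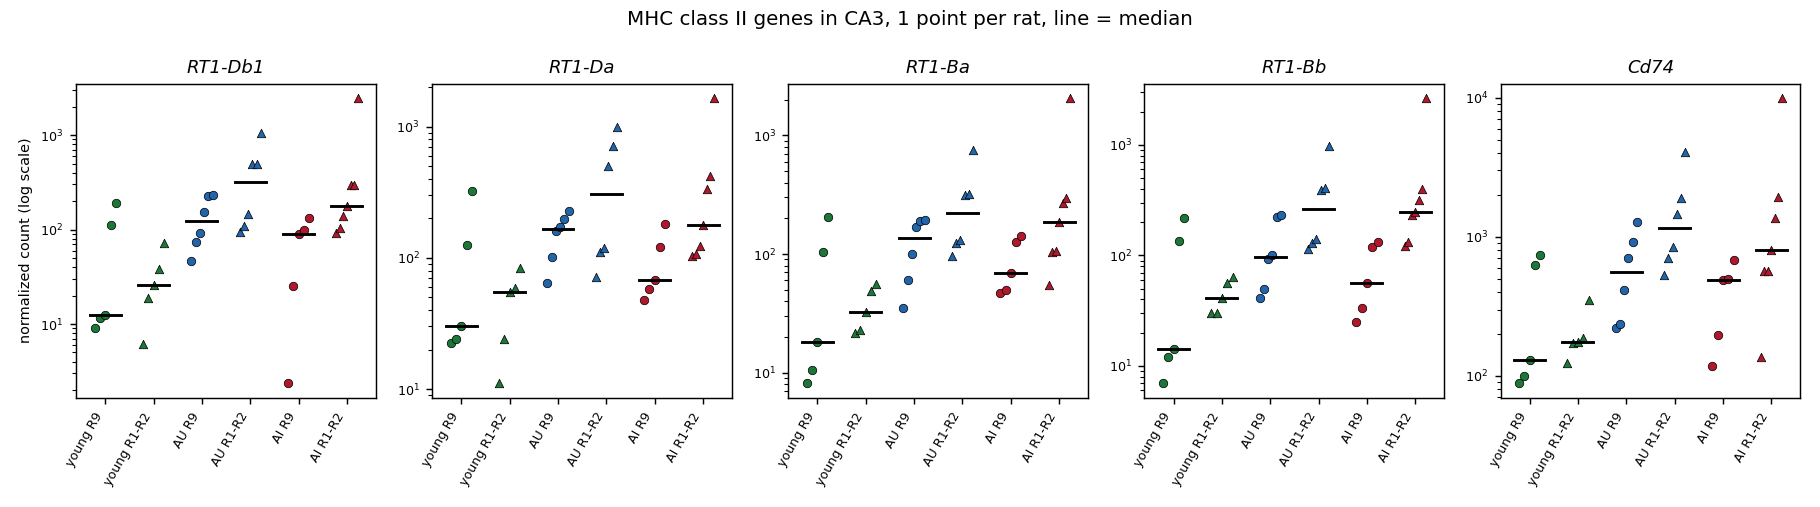
Normalized counts (logarithmic vertical axis) of 4 MHC class II chain genes and Cd74 in the CA3 libraries of young, AU and AI rats by identifier series (horizontal axis; circles R9, triangles R1-R2), 1 point per rat, with the median as a line. In the R1-R2 series the young and AU values of RT1-Db1 did not overlap (at most 71.8 and at least 95.4), whereas in the R9 series young rats R9876 and R9780 reached the AU values.

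Within the R1-R2 series, whose libraries carried the CA3 marker pattern, the groups did not overlap for 4 of the 10 MHC class II genes tested there, namely RT1-Db1, RT1-Ba, RT1-Bb and Cd74. Of all 16330 genes tested in that series, 19 (0.116%) lay higher in AU rats without overlap. RT1-Db1 ran from 6.18 to 71.8 in the young and from 95.4 to 1047 in AU rats of this series, and Cd74 from 123 to 352 and from 531 to 4062. The log2 difference of RT1-Db1 was 3.41 there and 1.85 in the R9 series, and that of Cd74 was 2.69 and 1.20. In the R9 series no MHC class II gene was without overlap (0.109% of all 16561 genes). A test of the interaction of group with series gave 0 genes at adjusted p under 0.05 (limma, smallest adjusted p = 0.999, 522 or 3.16% at an unadjusted p under 0.05), and p = 0.163 for RT1-Db1 and 0.0823 for Cd74. Without young rats R9876 and R2221, the 2 libraries rich in border tissue, the log2 differences of RT1-Db1 and Cd74 were 3.03 (adjusted p = 0.108) and 2.27 (adjusted p = 0.17). On the recovered reads the log2 difference of RT1-Db1 was 2.40 with edgeR and 0.32 with DESeq2, whose prior draws differences toward 0.

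The MHC class II list has 12 genes and 13 identifiers, as RT1-DMa has 2, and 11 identifiers were tested after RT1-Db2 and RT1-DOa fell under a mean of 5. Of these, 6 were at an unadjusted p under 0.05 and higher in AU rats (0.964% of all genes tested were), 0 were lower, and the median log2 difference was 0.46, beside -0.02 over all genes. The sixth was Ctss, with medians of 2839 in young and 3717 in AU rats and a log2 difference of 0.30 (SE 0.13, p = 0.0308). RT1-DMb, a chain of the peptide exchange factor, had 0.46 (SE 0.24, p = 0.0691), and the 2 identifiers of RT1-DMa had 0.24 and 0.19 (-0.07 and -0.05 in the R9 series). Ciita, the transactivator, was low, with medians of 4.32 in young and 7.78 in AU rats, and its log2 difference of 0.46 (SE 0.42, p = 0.282) was made of -0.73 in the R9 and 1.66 in the R1-R2 series. RT1-DOb, a chain of an inhibitor of that exchange, had 0.08 (SE 0.53, p = 0.876), a sign that turned when single libraries were left out. Class I genes present peptides from inside the cell and are expressed more widely. Of 15 tested 1 was higher at an unadjusted p under 0.05 (0.964% of all genes), RT1-CE5 (0.47, SE 0.21), and the median was 0.08.

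Microglial and lymphoid markers were read beside these values. The sum of 17 homeostatic microglia identifiers ran from 5884 to 7820 in young (median 6841) and from 6183 to 9100 in AU rats (median 7632), with overlap in both series. Of the 13 lymphocyte genes 11 fell under the mean of 5, and the T cell receptor subunit gene Cd3e had a median of 1.16 in young and 2.02 in AU rats, with 1 AU library at 90.6. The summed 8 genes of border macrophages and other myeloid cells had medians of 84.3 in young and 96.4 in AU rats, with 1213 in young rat R9876. In whole tissue fewer cells of a type and less RNA per cell cannot be told apart, and the part of these cells in the class II difference was not tested.

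Complement proteins tag targets for phagocytes, and C3 is the central component on which all activation routes meet. C3 (ENSRNOG00000046834) ran from 572 to 1195 in young (median 765) and from 866 to 2306 in AU rats (median 1325), and 12 of 12 AU libraries lay above the young median and 7 above the highest young library. Its log2 difference was 0.71 (SE 0.16, 95% interval 0.38 to 1.04, p = 0.00017, adjusted p = 0.567). The values within R9 (0.71) and within R1-R2 (0.70) were nearly equal. Of the 20 complement identifiers tested 4 were higher at an unadjusted p under 0.05 (0.964% of all genes) and 0 lower, and the median was 0.13. The other 3 belonged to C4, which acts with C2 in the classical and lectin routes: 2 identifiers named C4a (0.86 and 0.96) and C4b (0.65, SE 0.30), near-identical genes whose reads may be shared. Young rat R9876 held the highest young value of each (459 and 427 for C4a, 326 for C4b), and without it the differences were 1.103, 1.21 and 0.90. On the recovered reads edgeR gave C4a 0.58 (p = 0.0675) and 0.62 (p = 0.0719) and C4b 0.38 (p = 0.251), and both edgeR and DESeq2 left 1 of the 20 complement identifiers higher at an unadjusted p under 0.05. The genes of C1q, the recognition part of the classical route made by microglia, had log2 differences of 0.15 (C1qa), 0.19 (C1qb) and -0.03 (C1qc), all at p over 0.05.

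Tyrobp and Trem2 encode the adaptor and the lipid-sensing receptor that signal together in microglia. Tyrobp ran from 65.4 to 245 in young (median 153) and from 170 to 340 in AU rats (median 239), a log2 difference of 0.70 (SE 0.18, p = 0.00051). Trem2 ran from 112 to 224 in young (median 141) and from 162 to 291 in AU rats (median 218), a log2 difference of 0.50 (SE 0.13, p = 0.00071). In both genes 12 of 12 AU libraries lay above the young median, and in the R1-R2 series the values of Trem2 did not overlap. Cx3cr1, the fractalkine receptor through which neurons restrain microglia, had medians of 395 and 516 and a log2 difference of 0.32 (SE 0.09, p = 0.00256), with 0.48 in the R9 and 0.15 in the R1-R2 series. Cd33, a sialic acid receptor, had 0.41 (SE 0.14, p = 0.0073). These last were the 2 of 17 homeostatic microglia identifiers higher at an unadjusted p under 0.05 (0.964% of all genes). The list had a median of 0.18 with 15 above 0, as were 43.4% of all genes. The best known markers of the resting state had 0.21 (P2ry12) and 0.27 (Tmem119), neither at an unadjusted p under 0.05.

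Of the 20 genes tested from the list for activated microglia 4 were higher at an unadjusted p under 0.05 (0.964% of all genes) and 0 lower, but the median was -0.02, equal to that of all genes. The 4 were Tyrobp, Trem2, Gpr84, a receptor of medium-chain fatty acids (0.47, SE 0.16), and Gpnmb, a glycoprotein of phagocytes (0.57, SE 0.24). Members with values below 0 included Spp1 (-0.13) and Apoe (-0.10), which are commonly raised in activated microglia. Of 20 genes for Fc receptors and the phagocyte oxidase, 6 were higher at an unadjusted p under 0.05 (0.964% of all genes) and 0 lower, with a median of 0.17 and 17 above 0, as were 43.4% of all genes. They included Fcgr2b, the inhibitory receptor for IgG (medians of 94.6 and 147, log2 difference 0.59, SE 0.18, p = 0.00345), Fcrl2, Fcgr3a, Fcer1g, the signalling chain of several Fc receptors (0.40, SE 0.16), and Pld4 (0.38, SE 0.13). The subunits of the oxidase that makes superoxide had -0.25 (Cybb), 0.05 (Cyba) and 0.29 (Ncf1), with no member at an unadjusted p under 0.05. Of 30 lysosomal genes 4 were higher at an unadjusted p under 0.05 (0.964% of all genes) and 0 lower, with a median of 0.06: the cathepsin genes Ctsz (0.51, SE 0.20) and Ctss, the cholesterol carrier Npc2 (0.31, SE 0.13) and the membrane protein Laptm5 (0.28, SE 0.13). The cathepsins found in most cell types had 0.01 (Ctsb), 0.19 (Ctsd) and -0.01 (Ctsl).

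**Figure D3:**
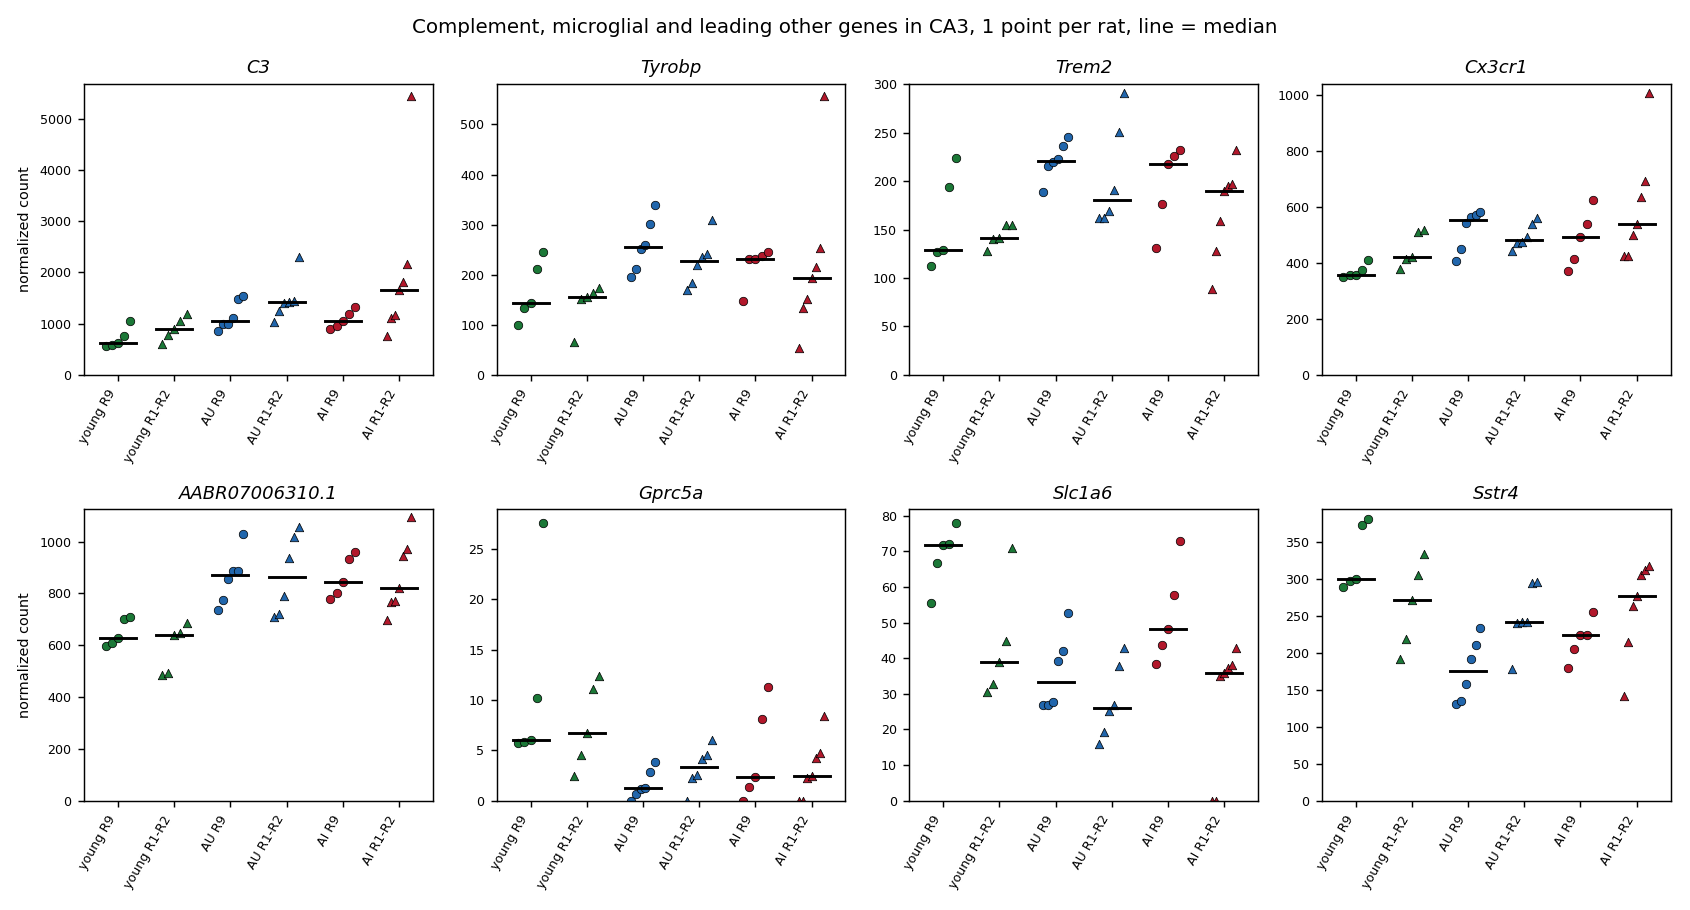
Normalized counts (vertical axis from 0) of 8 genes in the CA3 libraries of young, AU and AI rats by identifier series (horizontal axis; circles R9, triangles R1-R2), 1 point per rat, with the median as a line. All 12 AU libraries of AABR07006310.1 (709 to 1057) lay above all 10 young libraries (483 to 707), and the AU values of C3, Tyrobp, Trem2 and Cx3cr1 overlapped with the upper young values.

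Glial fibrillary acidic protein, the filament of astrocytes, is raised in reactive astrocytes. Gfap ran from 6589 to 19935 in young (median 12849) and from 10921 to 23702 in AU rats (median 16499), a log2 difference of 0.39 (SE 0.19, p = 0.0483) with wide overlap. It was the 1 of 17 genes of the reactive astrocyte list higher at an unadjusted p under 0.05 (0.964% of all genes). The median of the list was -0.07. On the recovered reads the difference of Gfap was 0.34 with edgeR (p = 0.0730) and 0.23 with DESeq2 (p = 0.0681). With 1 library left out its limma value ran from 0.29 to 0.47. Among 15 general astrocyte genes S100b, a calcium-binding protein, was the 1 higher at an unadjusted p under 0.05 (0.28, SE 0.12), beside 0.964% of all genes. The median of these 15 was 0.05. Interferon-induced genes, which share a trigger with class II genes when interferon gamma is present, had 0 of 23 at an unadjusted p under 0.05 in either direction and a median of 0.00, made of -0.27 in the R9 and 0.31 in the R1-R2 series. The 2 with the smallest p were Ifitm3 (-0.68, p = 0.0589) and Oasl (-1.04, p = 0.0697). Ifitm3 was at -0.45 without young rat R9876 and -0.31 without both R9876 and R2221, and Oasl was at -0.54 with edgeR.

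A further list of 24 genes was chosen by the authors partly on these libraries, and is not independent evidence of direction. For AU against young rats in CA3, 24 of 24 had a log2 difference above 0 (43.4% of all genes tested). At an unadjusted p under 0.05, 16 were higher (0.964% of all genes tested). The median was 0.43, with a range from 0.10 to 1.94. Its members named so far include Cd74, C3, Trem2, Fcgr2b, Cx3cr1, Pld4, Gpr84, Ctsz, Npc2, Ctss and Gfap. Bpifb4, a lipid-binding protein of the BPI fold family, had medians of 13.4 in young and 40.0 in AU rats and a log2 difference of 1.17 (SE 0.31, p = 0.00099), and 7 of 12 AU libraries lay above the highest young one. Gpr183, an oxysterol receptor, had 0.67 (SE 0.24, p = 0.0099), Cdh23 0.52 (SE 0.20) and Cd4 0.48 (SE 0.21). Those at p over 0.05 were Csf1r (0.16), Itgb2 (0.23; -0.02 in the R9 series), Ncf1 (0.29), Nckap1l (0.10), Pcdhb4 (0.36), Slc14a1 (0.16), Wdfy4 (0.29; -0.02 in the R1-R2 series) and Cdh1.

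Cdh1, which encodes E-cadherin, the adhesion molecule of epithelia, gave different values in the 2 series. In the R1-R2 series it ran from 5.41 to 12.8 in young and from 32.2 to 75.1 in AU rats, without overlap, and was the 1 gene of 16330 at adjusted p under 0.05 there (limma, 0.00612% called, log2 difference 2.36, adjusted p = 0.0413). In the R9 series it ran from 16.5 to 577 in young and from 10.5 to 178 in AU rats, and the log2 difference was -0.12. The value of 577 was that of young rat R9876, whose meningeal markers were high. The value of 178 was that of AU rat R9862, whose meningeal sum (3357) was the highest of the AU libraries. The part of that tissue in these values was not tested. Over all 22 libraries the difference was 1.12 (SE 0.55, p = 0.0533). With 1 library left out it ran from 0.91 to 1.64, the latter without young rat R9876. It turned to -0.37 with edgeR on the recovered reads. The list of cadherins and protocadherins, which includes Cdh1, gave 3 of 41 higher at an unadjusted p under 0.05 (0.964% of all genes). These were Cdh23, Pcdhb3 and Pcdhb21, and the list median was 0.04.

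AABR07006310.1 (ENSRNOG00000021084), which has no established name in the table, had the smallest p of all genes. It ran from 483 to 707 in young (median 632) and from 709 to 1057 in AU rats (median 871), and was the 1 gene of 16493 whose groups did not overlap with AU higher (0.00606%), with 0 lower. The log2 difference was 0.48 (SE 0.10, 95% interval 0.28 to 0.68, p = 3.5e-05, adjusted p = 0.567), a fold of 1.4, with 0.41 in the R9 and 0.56 in the R1-R2 series. In CA1 and DG it had 0.26 (p = 0.209) and 0.27 (p = 0.0486). Tnnc2, the troponin C of fast skeletal muscle, was singled out after its values were seen, as the next gene by p that belongs to no list. It had medians of 42.9 in young and 109 in AU rats (log2 difference 1.12, SE 0.27, p = 0.00037), against 0.18 in CA1 and 0.34 in DG.

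The 3 genes with the smallest p among those lower in AU rats were Gprc5a, Slc1a6 and Sstr4, none with an adjusted p under 0.05. Gprc5a, an orphan receptor induced by retinoic acid, was low, from 2.43 to 27.5 in young (median 6.33) and from 0 to 6.04 in AU rats (median 2.42). It passed the mean of 5 only through the young libraries and was no longer tested without young rat R9876 (27.5), so its difference is not given as a result. Slc1a6 encodes the glutamate transporter EAAT4, best known from Purkinje cells. It ran from 30.5 to 77.9 in young (median 61.2) and from 16.0 to 52.6 in AU rats (median 27.3), and 12 of 12 AU libraries lay below the young median, a log2 difference of -0.80 (SE 0.22, p = 0.00118). Sstr4, a somatostatin receptor of hippocampal pyramidal neurons, ran from 192 to 382 in young (median 299) and from 131 to 296 in AU rats (median 222), a log2 difference of -0.50 (SE 0.15, p = 0.00333). For Sstr4 it was -0.91 in the R9 series, where the groups did not overlap (0.157% of genes lay lower without overlap), and -0.08 in the R1-R2 series, where 0.0674% of genes lay lower without overlap, with p = 0.0039 for the interaction with series. The 7 CA1 marker genes also differed by series, with a median log2 difference of -0.87 in R9 and 0.44 in R1-R2 libraries, and their part in the value of Sstr4 was not tested. The R9 values of Slc1a6 did not overlap either, and its difference in the R1-R2 series was -0.64.

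Collagens and matrix proteins had 27 of 30 identifiers below 0, as were 9336 of all 16493 genes tested. At an unadjusted p under 0.05, 2 were lower (0.782% of all genes) and 0 higher, and the median was -0.26. Col11a1, a fibrillar collagen, had medians of 177 and 123 (log2 difference -0.61, SE 0.23, p = 0.0129), and Col4a5, a collagen of basement membranes, had medians of 77.3 and 46.0 (-0.67, SE 0.29, p = 0.0309). Several of the other members are meningeal genes, such as Col1a1 (-0.81) and Col3a1 (-0.93), and are highest in young rat R9876. Without young rats R9876 and R2221, 14 of the 30 were above 0, the median was -0.02, and 0 were lower and 1 higher at an unadjusted p under 0.05. With edgeR on the recovered reads of all 22 libraries the median was -0.48 and 8 were lower. The 12 meningeal markers all had differences below 0 over all libraries, with a median of -0.47, and 0.06 without those 2 rats.

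Neuronal gene groups were read in the same way. There was no member at an unadjusted p under 0.05 in either direction among 20 immediate early genes (median -0.02), 20 interneuron genes (-0.08) or 13 subunits of GABA receptors (-0.04). The same held for 31 calcium handling genes (-0.02) and 43 genes of oxidative phosphorylation (-0.05). Of the latter 31 were below 0, as were 9336 of all 16493 genes tested. The smallest p in these groups belonged to Junb (-0.24, p = 0.073), Kit (-0.50, p = 0.121), Gabra2 (-0.21), Ryr3, the ryanodine receptor 3 (-0.27, p = 0.0772), and Cox5b (-0.31, p = 0.0659). Of 22 glutamate receptor genes 1 was higher at an unadjusted p under 0.05 (0.964% of all genes), Grm4, a presynaptic receptor (0.75, SE 0.32). On the recovered reads Grm4 had 0.64 with edgeR (p = 0.0554) and 0.26 with DESeq2 (p = 0.0426). Grm5 had -0.18, with -0.57 in the R9 and 0.21 in the R1-R2 series. Genes of new neurons had a median of -0.24, with 9 of 12 below 0 (9336 of all 16493 genes were) and 0 at an unadjusted p under 0.05. Dcx, doublecortin, had medians of 440 and 354 (-0.29, p = 0.104). Myelin (15 genes, median 0.03), oligodendrocyte precursors (13, 0.03), DNA damage and senescence (17, -0.01), heat shock and unfolded protein responses (22, -0.01) and cholesterol synthesis (20, 0.04) had 0 members at an unadjusted p under 0.05. The median of the myelin genes was 0.39 in the R9 and -0.36 in the R1-R2 series. Among markers of other tissue, Tbr1 of the cortex and subiculum list was the 1 at an unadjusted p under 0.05 (0.55, p = 0.0463), beside 0.964% of all genes higher. The medians of the other marker lists were -0.63 (choroid plexus, 0.09 without the 2 young rats), -0.16 (endothelium), -0.06 (pericytes and smooth muscle), -0.04 (ependyma), -0.05 (CA3), -0.18 (CA1), -0.14 (CA2), 0.29 (DG), -0.41 (macrophages), 0.24 (lymphocytes), 0.15 (blood), -0.23 (pituitary) and 0.03 (thalamus). Several of these medians differed in sign between the series, with R9 first and R1-R2 second: -0.87 and 0.44 for CA1, -0.48 and 0.19 for CA2, -0.12 and 0.40 for DG, and 0.11 and -1.22 for choroid plexus. Those of the CA3 markers were -0.08 and -0.03.

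**Figure D4:**
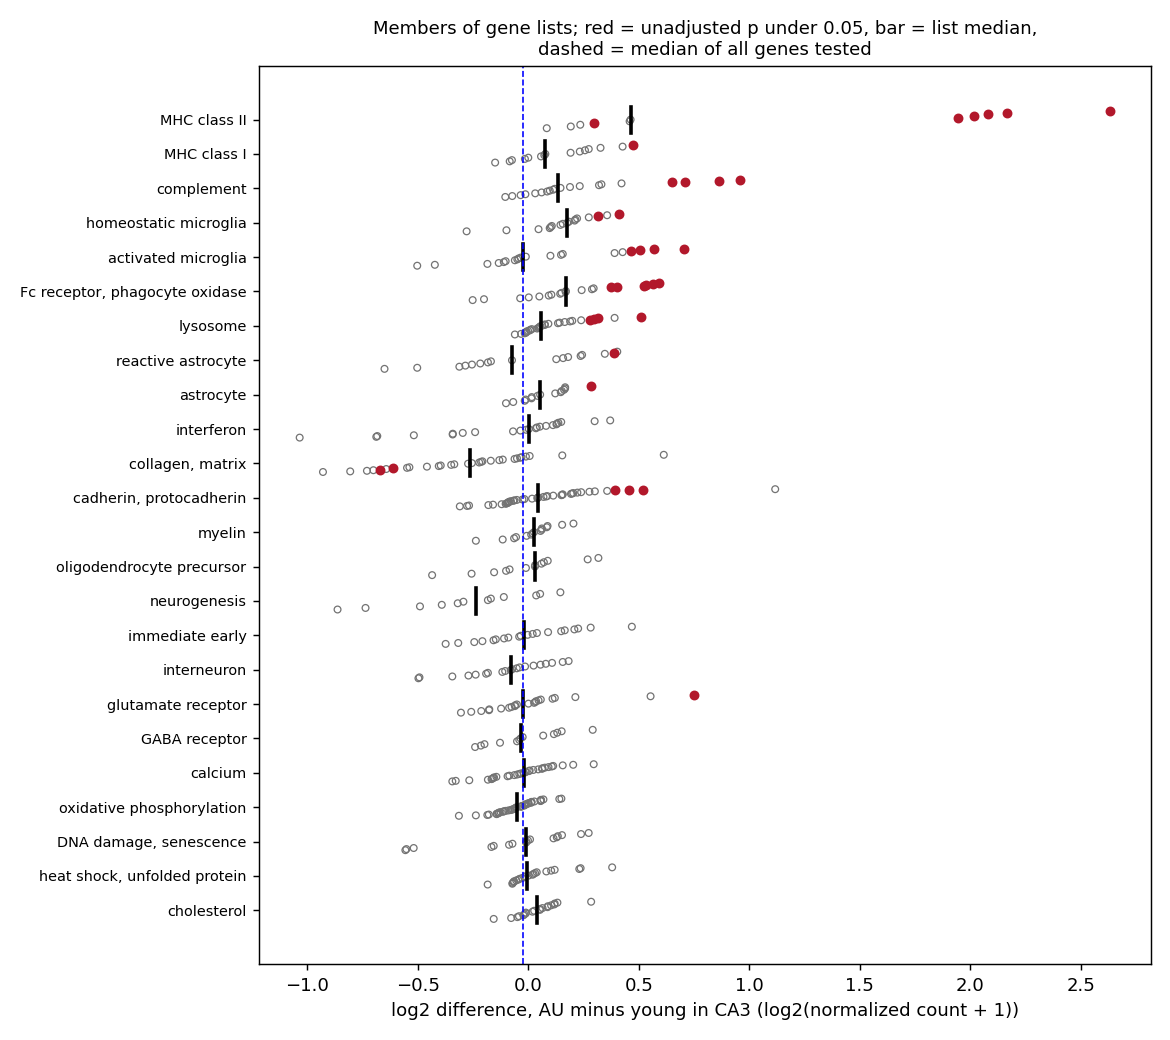
Log2 difference of AU minus young in CA3 (horizontal axis) for the tested members of 24 gene lists (vertical axis), 1 point per gene, with members at an unadjusted p under 0.05 filled red, the list median as a bar and the median of all genes (-0.02) as a dashed line. The MHC class II list holds 5 points near or above 2, and the collagen and matrix list lies mostly below 0 (median -0.26).

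The same 22 rats gave CA1 and DG libraries, so the difference between AU and young rats in CA3 could be set against that in the other subfields of each rat. The test of CA3 minus CA1 within rats gave 0 of 16444 genes at adjusted p under 0.05 (limma, 0% called, smallest adjusted p = 1.0, 252 or 1.53% at an unadjusted p under 0.05). The test of CA3 minus DG gave 0 of 16351 (0% called, 235 or 1.44% at an unadjusted p under 0.05). Neither test was run with a count model. RT1-Db1 had a log2 difference of 1.55 (SE 0.90) in CA1 and 1.65 (SE 0.45) in DG against 2.63 in CA3, and the within-rat differences were 1.08 (SE 0.99, p = 0.286) and 0.98 (SE 0.79, p = 0.229). Cd74 had 1.14 (SE 0.84) in CA1 and 1.56 (SE 0.37) in DG against 1.94. C3 had 0.77 and 0.79 against 0.71, and Tyrobp had 0.49 and 0.48 against 0.70. C4a, C4b and Gfap had larger values in CA1 and DG than in CA3 for the points estimated (for Gfap 0.70 and 0.47 against 0.39, within-rat p = 0.201 and 0.685). The 24 genes of the authors' list had medians of 0.40 in CA1 and 0.44 in DG, with 13 and 17 higher at an unadjusted p under 0.05 (against 2.54% and 3.29% of all genes there). Slc1a6 had 0.46 (SE 0.25) in CA1 and 0.07 (SE 0.26) in DG against -0.80 in CA3, with within-rat differences of -1.26 (SE 0.35, p = 0.0013) and -0.87 (SE 0.34, p = 0.0165) that did not pass adjustment. Slc1a6 and RT1-Db1 were named for their small p in CA3. Their within-rat differences reuse those CA3 values, so their p-values are not an independent test of a difference between subfields. Col11a1 was below 0 in all 3 subfields, at -0.71 (CA1), -0.76 (DG) and -0.61 (CA3).

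**Figure D5:**
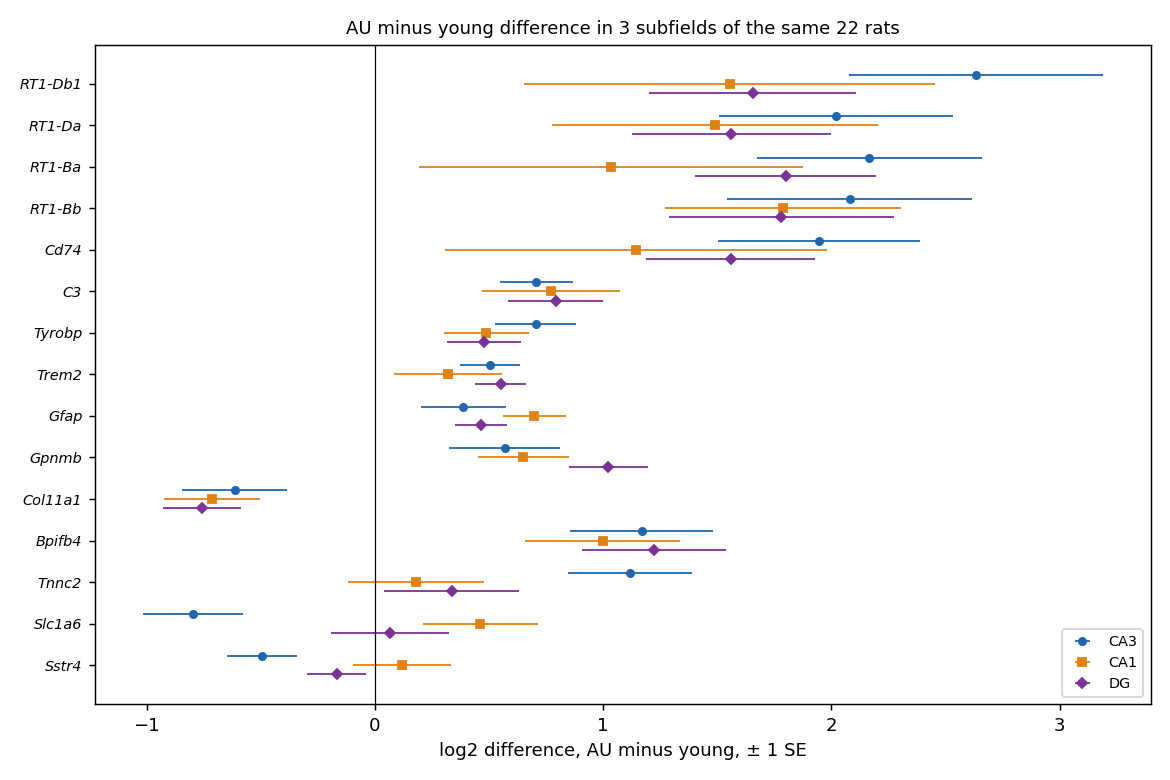
Log2 difference of AU minus young ± 1 SE (horizontal axis) in CA3, CA1 and DG of the same 22 rats for 15 genes (vertical axis). Bars of the 3 subfields overlap for the class II genes, C3 and Trem2, while Slc1a6 is at -0.80 in CA3, 0.46 in CA1 and 0.07 in DG.

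The 12 AI rats, which came from the same age range as the AU rats (17 to 22 months) and had a poorer probe trial, allow the same genes to be read by memory status. The age of each rat is not given, so whether the 2 aged groups differed in age was not tested. The test of AI against AU rats in CA3 gave 0 of 16436 genes at adjusted p under 0.05 (limma, 0% called, smallest adjusted p = 1.0, 264 or 1.61% at an unadjusted p under 0.05, 0 by edgeR and 0 by DESeq2). RT1-Db1 ran from 2.36 to 2476 in AI rats (median 118, against 150 in AU and 22.3 in young rats), and AI minus AU was -0.63 (SE 0.67, p = 0.356). For Cd74 the AI median was 567 (774 in AU and 174 in young rats), and AI minus AU was -0.34 (SE 0.55). For C3 it was 1183 (1325 and 765), and AI minus AU was 0.12 (SE 0.23, p = 0.598). 1 AI library of the R1-R2 series held the highest value of RT1-Db1, Cd74 (9967) and C3 (5447). AI rats R1931 and R9781 had the fewest genes above 0 of the CA3 libraries (15790 and 16226). They held the lowest AI values of Cd74 (136 and 118) and C3 (766 and 899), and R9781 that of RT1-Db1 (2.36). The part of these libraries in the AI values and counts was not tested. AI against young rats, which shares the 10 young libraries, had log2 differences of 2.0 (RT1-Db1), 1.602 (Cd74), 0.83 (C3) and 0.48 (AABR07006310.1), beside 2.63, 1.94, 0.71 and 0.48 for AU rats, and 0 of 16450 genes at adjusted p under 0.05 (limma, 398 or 2.42% at an unadjusted p under 0.05, 0 by edgeR and 1 by DESeq2). The medians of AI minus AU over the class II, complement and activated microglia lists were -0.15, 0.12 and -0.0049, beside -0.02 over all genes.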

How the data were processed

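Polyadenylated RNA was sequenced on the Ion Proton. Reads of low quality were removed, the rest were aligned to rn5 with TopHat2 and Bowtie2 and counted per gene with featureCounts 1.4.4, per the paper's methods and the submitters' processing notes, and the authors normalized counts with DESeq2 1.10.1. The strand setting is not given in the sources used here. The deposited values are a signal, normalized counts, reads divided by 1 size factor per library. Dividing each of the 102 libraries by its smallest value above 0 gave whole reads for 100% of values (tolerance 0.001), and these recovered reads gave the depths. No column was left out.

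AU and young rats in CA3 were compared with limma 3.58.1 (trend, two-sided) in R 4.3.3 on log2(normalized count + 1), for genes averaging 5 or more over the libraries compared, with Benjamini-Hochberg adjustment over all genes and a threshold of 0.05. A fold change on this scale understates that of low genes. AU minus young was compared between subfields on within-rat differences (replicate block). The rat number pairs subfields because they come from 1 animal. Deviations from group means of the same rat had a mean correlation of 0.0709 for CA3 with CA1 and -0.00481 for CA3 with DG over 22 rats. Alternatives were pseudocounts of 0.5 and 5, no filter, a stricter mean of 20, rescaling by TMM, the series as covariate, edgeR 4.0.16 and DESeq2 1.42.0 on recovered reads, 1 fit of 3 groups, each series alone and each library left out. Leaving out both young libraries with high border tissue markers, and each series alone outside the main comparison, were added after seeing the data. The fits were tested on simulated data.

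The genes and lists were chosen with earlier results of these data known. Named genes were the 3 with the smallest p in each direction (as no gene passed), the study's 24 genes and Col4a5, the 2 with the smallest p of each list, list members at an unadjusted p under 0.05, and markers. Further members of the lists named for their function (such as C1qa, P2ry12, Spp1 or Ctsb) were chosen after their values were seen. Some list members are not reported here by name. Symbols were those of the table, of whose 26689 genes 4719 have none. Libraries of 1 group came from separate rats, and pairwise correlations (0.863 to 0.986) showed no library deposited as 2.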

Additional observations from a re-analysis of the deposited data

Results flagged for a closer look

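Among the young CA3 libraries 102 levels and marker sums were examined for a sample far from the other 9, by Dixon's ratio of its gap to the range at the 95% level, and 12 were marked, where chance marks about 1 in 20. The AU and AI groups, with 12 samples each, were not examined in this way. Young rat R9876 had the highest sum of meningeal markers (31471.6, next 1645.84), of pericyte and smooth muscle markers (5306.46, next 2091.85) and of macrophage markers (1213.02, next 170.821). The same library was highest for C4a (458.979, next 141.054), C4b (325.875, next 85.7434), Pdgfra (2003.12, next 1273.95) and Cdh1 (577.003, next 57.5039). Young rat R2221 had the highest choroid plexus sum (20349.9, next 3260.27). The remaining 4 were low values in 1 library each: Kit in young rat R9879 (1110.39, next 1815.59), Grm5 in young rat R1922 (658.529, next 963.857), Fcgr3a in young rat R1923 (12.0187, next 26.2637) and RT1-DOb in young rat R9877 (0, next 2.43449). What set these libraries apart was not tested.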

How the results depend on the processing

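Of 2778 recomputed values for 82 genes of the CA3 comparison, 2758 kept their direction and their side of the threshold, 2 passed it and 18 turned. Cdh1 passed in the R1-R2 series alone (2.36) and AABR07006310.1 with DESeq2 (0.43). In the R9 series alone the sign turned for Aspa (0.17), Itgb2 (-0.024), Cdh1 (-0.12), Ciita (-0.73) and both identifiers of RT1-DMa (-0.052 and -0.065). In the R1-R2 series alone it turned for Nptx2 (0.059), Gjb1 (-0.076), Grm5 (0.21), Gadd45a (-0.047), Cryab (-0.12) and Wdfy4 (-0.025). Cdh1 turned with edgeR (-0.37), and RT1-DOb, which ran from -0.17 to 0.30 with 1 library left out, in 5 of those fits (AU rats R9782, R2185, R9860 and R9862 and young rat R9877). The count of genes at adjusted p under 0.05 between AU and young rats in CA3, 0, became 1 with DESeq2 and 1 within the R1-R2 series, and stayed 0 with each library left out (lowest 0, highest 0). For CA1 the count of 0 became 1 with the series as covariate and 9 with DESeq2. For DG the count of 2 became 1 with a pseudocount of 0.5, 0 without a filter, 7 with the series as covariate, 0 with edgeR, 19 with DESeq2, and 0 in either series alone. For AI against young rats DESeq2 gave 1. The count for AI against AU rats was 0 in all alternatives run. The within-rat (replicate block) comparisons gave 0 genes, as did the fits with no replicate block, with 252 and 177 (CA1) and 235 and 208 (DG) at an unadjusted p under 0.05. The causes were not tested. At these depths and group sizes a typical 95% interval had a half-width of 0.39 on the log2 scale.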
